A study of Mus musculus with 6 samples.

Results

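Aquaporins are membrane channels that let water, and in some members glycerol, cross cell membranes, and the colon uses them while it dries its contents. Expression of 6 mouse aquaporin genes, Aqp1, Aqp3, Aqp4, Aqp7, Aqp8 and Aqp11, was examined in the colonic mucosa of C57BL/6 mice. All probe sets that the platform annotation pairs with 1 of these symbols were taken, which gave 14 of the 45101 probe sets of the array, or 6 of its 18193 genes with a symbol. There were 1 for Aqp1, 4 for Aqp3, 3 for Aqp4, 2 for Aqp7, 1 for Aqp8 and 3 for Aqp11.

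The study set 3 arrays labelled p38a knockout against 3 arrays labelled wildtype, with letters A, B and C in each group, and all mice were untreated. p38a is a stress-activated kinase, the product of Mapk14, and the comparison addresses which transcripts of the colonic mucosa depend on it. The source is given as colonic mucosa and the cell type as intestinal epithelial cells. No age, Cre driver or deleted exons could be taken from these labels. Whether each sample is a mouse of its own is not stated. A p-value therefore sets a difference only against the spread among these samples, and that spread may be technical.

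Values are given array by array in the order A, B, C, as the deposited MAS5 signal, on a linear scale, or as log2(signal + 16) after quantile normalization, called the log2 level here. Differences are on the log2 scale, arrays labelled knockout minus wild type, and this scale understates the change of dim probe sets. Levels of different probe sets cannot be set against each other. The number of arrays and the spread among them limit the precision. In RNA from many cells together, fewer cells of a type and less RNA per cell cannot be told apart.

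The water channels Aqp1, Aqp4 and Aqp8 conduct mainly water, whereas Aqp3 and Aqp7 are aquaglyceroporins that also pass glycerol. In the intestine Aqp8 is known from the absorptive cells of the epithelial surface, Aqp4 and Aqp3 from basolateral membranes, and Aqp1 from the endothelium of small vessels. Aqp11 belongs to a divergent branch of the family, lies in the membrane of the endoplasmic reticulum, and its loss in mice damages the kidney.

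Before the members, 3 facts of the arrays bear on them. The level of Mapk14 on its brightest probe set showed no loss in the arrays labelled knockout (log2 levels 9.72, 9.91 and 9.73, against 9.31, 9.44 and 9.37 in wild type), a difference of 0.41 (SE 0.15, limma adjusted p = 0.915), so it went against the label. The other Mapk14 probe sets had overlapping groups. They stood at 0.62 (1416704_at, SE 0.34), 0.34 (1459617_at, SE 0.25), 0.29 (1442364_at, SE 0.63) and -0.06 (1426104_at, SE 0.24). The dim 1451927_a_at, which was not tested, stood at 0.17. Whether any of these probe sets reads the deleted exons was not known here, and one that lies beyond them is no check of the genotype. The Gapdh ratio is that of the array's 3′ over 5′ Gapdh controls, a measure of RNA integrity that is higher for broken RNA. It was 0.859 to 0.954 in the arrays labelled knockout, against 1.10 (A), 0.989 (B) and 1.45 (C) in wild type. The groups do not overlap in this ratio, so values adjusted for it cannot tell RNA integrity and the label apart. The same ratio of the beta-actin controls was 2.05, 2.27 and 1.82 in the arrays labelled knockout. In wild type it was 2.40, 2.24 and 3.25, so on these controls the groups overlapped, and no values were adjusted for it. Deposited signals had a 2% trimmed mean of 192 to 222 in the arrays labelled knockout, against 141 (A), 188 (B) and 117 (C) in wild type, so that wild type A and C were the dimmest arrays.

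No aquaporin probe set passed the test. Of the 14 probe sets, 8 lay above the filter on low signals and were tested, covering Aqp1, Aqp3, Aqp4, Aqp8 and Aqp11. limma called 0 of these 8 at an adjusted p of 0.05, where it called 0 of all 27002 probe sets tested (0%). At an unadjusted p under 0.05 there was 1 of the 8, against 952 of 27002 (3.53%). The 1 probe set was 1429254_at of Aqp11. It was also the only one of the 8 whose groups did not overlap, and it was higher in the arrays labelled knockout, as were 1282 of 27002 (4.75%). None of the 8 was lower without overlap, against 1079 of 27002 (4%). Of the 8, 5 had a positive and 3 a negative difference, with a median of 0.29, against a median of 0.02 over all probe sets tested.

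**Figure D1:**
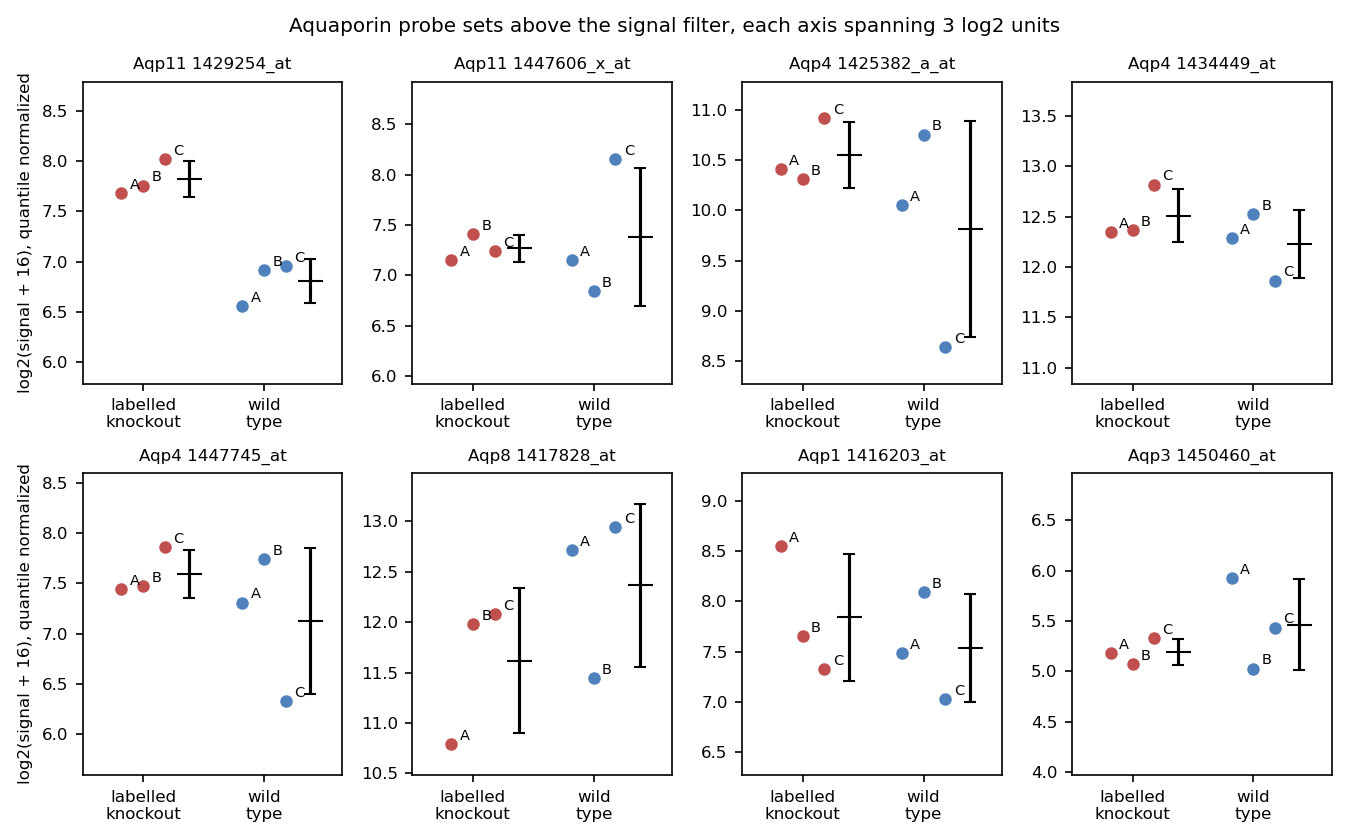
Log2 level of the 8 tested aquaporin probe sets on each array (points, with the replicate letter), arrays labelled knockout at the left of each panel and wild type at the right, with the group mean and SD (n = 3 each) in black. The groups stand apart for Aqp11 on 1429254_at, with 7.68 to 8.02 in the arrays labelled knockout and 6.56 to 6.96 in wild type, and overlap on the other 7 probe sets.

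Aqp11, the channel of the endoplasmic reticulum, had the smallest unadjusted p among the 8 tested probe sets, on 1 of its 3. The deposited signal of 1429254_at was 242, 222 and 286 in the arrays labelled knockout, against 64.1, 108 and 78.6 in wild type. All 3 arrays labelled knockout lay above all 3 wild-type arrays, with and without scaling between arrays. After normalization the log2 level was 7.82 ± 0.18 in the arrays labelled knockout and 6.81 ± 0.22 in wild type (SD, n = 3 each). The difference was 1.01 (SE 0.21, 95% interval 0.54 to 1.48, limma adjusted p = 0.915 and unadjusted p = 0.000961), or 2.01-fold higher. By unadjusted p it stood at place 19 of 27002. Only 20 of 27002 probe sets (0.0741%) were at least 2-fold higher in the arrays labelled knockout with no overlap between the groups, and this was 1 of them.

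The 250 bases before the RefSeq gene start (GRCm38.p6) are shown for Aqp11, whose probe set 1429254_at stood apart between the groups, and for Aqp8, the member with the most negative difference. Capitals mark CG dinucleotides. Aqp11 lies on the minus strand, at chr7:97738248-97738497, and Aqp8 on the plus strand, at chr7:123462044-123462293.
Aqp11: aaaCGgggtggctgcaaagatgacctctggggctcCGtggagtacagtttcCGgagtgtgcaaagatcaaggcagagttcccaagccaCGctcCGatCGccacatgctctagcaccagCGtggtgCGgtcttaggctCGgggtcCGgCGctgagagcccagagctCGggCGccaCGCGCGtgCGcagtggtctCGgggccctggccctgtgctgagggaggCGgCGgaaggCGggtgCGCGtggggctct
Aqp8: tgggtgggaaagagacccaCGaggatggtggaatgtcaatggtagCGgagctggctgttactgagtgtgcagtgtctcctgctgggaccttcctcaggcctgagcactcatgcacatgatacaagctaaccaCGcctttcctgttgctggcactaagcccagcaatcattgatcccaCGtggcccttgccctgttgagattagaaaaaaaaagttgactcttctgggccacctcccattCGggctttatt
The Aqp11 window held 23 CG dinucleotides and 67.2% G or C, and the Aqp8 window 5 and 52.4%. The median over 32851 promoter windows of the same length was 6, and 13.3% of them had at least as many as Aqp11. Neither window held the AP-1 motif TGANTCA, the CRE motif TGACGTCA or the TATA box TATAAA on either strand, which were in 6.75%, 1.55% and 12.4% of all windows.

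The difference of 1429254_at ran from 0.77 to 1.44 over the 19 alternatives in which it was tested. Because its groups do not overlap, leaving out arrays could not turn its direction. Changes of the filter or the variance prior left the difference as it was. The unchanged direction therefore adds no support. Against wild type B alone, the control array nearest to the arrays labelled knockout in Gapdh ratio, the difference was 0.90 (SE 0.26). Against wild type A and C it was 1.06. Adjusted for the Gapdh ratio, which itself separates the groups, it was 1.07 (SE 0.27). It passed only when arrays were weighted, at an adjusted p of 0.00218 in limma with weights whose estimation did not converge and of 0.0293 with weights estimated gene by gene. Over the 19 alternatives the limma adjusted p ran from 0.00218 to 0.9998.

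The other Aqp11 probe sets did not all read the same way. The dim 1455846_at read 37.4, 22.9 and 42.7 in the arrays labelled knockout and 3.45, 18.6 and 6.58 in wild type. Its mean log2 levels were 5.51 ± 0.29 in the arrays labelled knockout and 4.67 ± 0.45 in wild type (SD, n = 3 each). They put it just under the filter at 5.10, so the filtered test left it out. The groups stood apart on this probe set only narrowly, as knockout B (5.18) and wild type B (5.18) were level to 2 decimals. How often groups stand apart below the filter was not counted, so this adds no support. Without the filter all 14 aquaporin probe sets were tested and 0 of them were called. The third, 1447606_x_at, read 155, 171 and 161 in the arrays labelled knockout, against 102, 101 and 180 in wild type. Wild type C was the highest of all 6 arrays on this probe set and wild type B the lowest, so the groups overlapped. Its difference was -0.12 (SE 0.32, 95% interval -0.86 to 0.62, limma adjusted p = 0.960), and it turned to 0.27 without wild type C and to 0.36 on the signals as deposited, where the median of all probe sets lay at 0.40. The suffix of this probe set marks probes that may read related transcripts as well.

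The genes whose levels over the 6 arrays were most like Aqp11 depended on the probe set. Likeness was the root mean square distance between log2 levels after each gene's mean was removed, among the brightest probe sets of 12437 genes. The brightest Aqp11 probe set is 1447606_x_at, and the nearest to it were Tspyl3 (distance 0.0392), Ufsp1 (0.0589) and Clcn7, a lysosomal chloride transporter gene (0.0757). For 1429254_at, added after its values were seen, the nearest were Fam118a (distance 0.178), Nr1d2, which encodes the clock repressor REV-ERB beta (0.192), and Nckap5 (0.196). Nr1d2 read 9.68, 9.90 and 10.43 in the arrays labelled knockout and 8.65, 9.01 and 9.49 in wild type. Its groups did not overlap, but it was picked for being near a probe set whose groups stand apart. That makes it no separate result.

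Aqp8, the water channel of the absorptive surface cells, had the lowest difference among the members, with overlapping groups. Its only probe set, 1417828_at, read 2236, 4407 and 4967 in the arrays labelled knockout and 5689, 3090 and 6084 in wild type. Wild type A and C were the highest arrays and knockout A the lowest, while wild type B lay between knockout A and B. The log2 level was 11.62 ± 0.72 in the arrays labelled knockout and 12.37 ± 0.81 in wild type (SD, n = 3 each). The difference was -0.75 (SE 0.44, 95% interval -1.75 to 0.25, limma adjusted p = 0.915). It was -1.21 against wild type A and C and 0.17 (SE 0.45) against wild type B alone, and -0.34 without knockout A. After adjustment for the Gapdh ratio it was -0.078 (SE 0.51). The SD within each group was thus about as large as the difference between them. Aqp8 passed only with the array weights that did not converge (limma adjusted p = 0.0184, range over its alternatives 0.0184 to 0.9998).

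The arrays ranked the same way for Aqp8 and for a list of surface colonocyte genes that does not hold Aqp8. From low to high the order was knockout A, wild type B, knockout B, knockout C, wild type A and wild type C, both for Aqp8 and for the mean log2 level of the 13 tested genes of the list. The list means were 12.15, 12.52 and 12.67 in the arrays labelled knockout and 12.83, 12.34 and 13.02 in wild type. Of these 13 genes 2 were higher and 11 lower, with a median of -0.22, and none passed. Clca4a, a calcium-activated chloride channel regulator gene, stood at -1.06 (SE 0.29), Guca2a, the guanylin gene, at -0.35 (SE 0.11) and Emp1 at -0.40 (SE 0.18). Their part in the Aqp8 difference was not tested.

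The genes nearest to Aqp8 over the 6 arrays were Slc15a1, the peptide transporter PEPT1 gene (distance 0.120), the interferon-inducible GTPase gene Gbp2 (0.137) and the cytochrome P450 gene Cyp2d9 (0.166). Slc15a1 read 7.04, 8.57 and 8.46 in the arrays labelled knockout and 9.12, 7.96 and 9.53 in wild type, low in knockout A and wild type B as Aqp8 was.

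**Figure D2:**
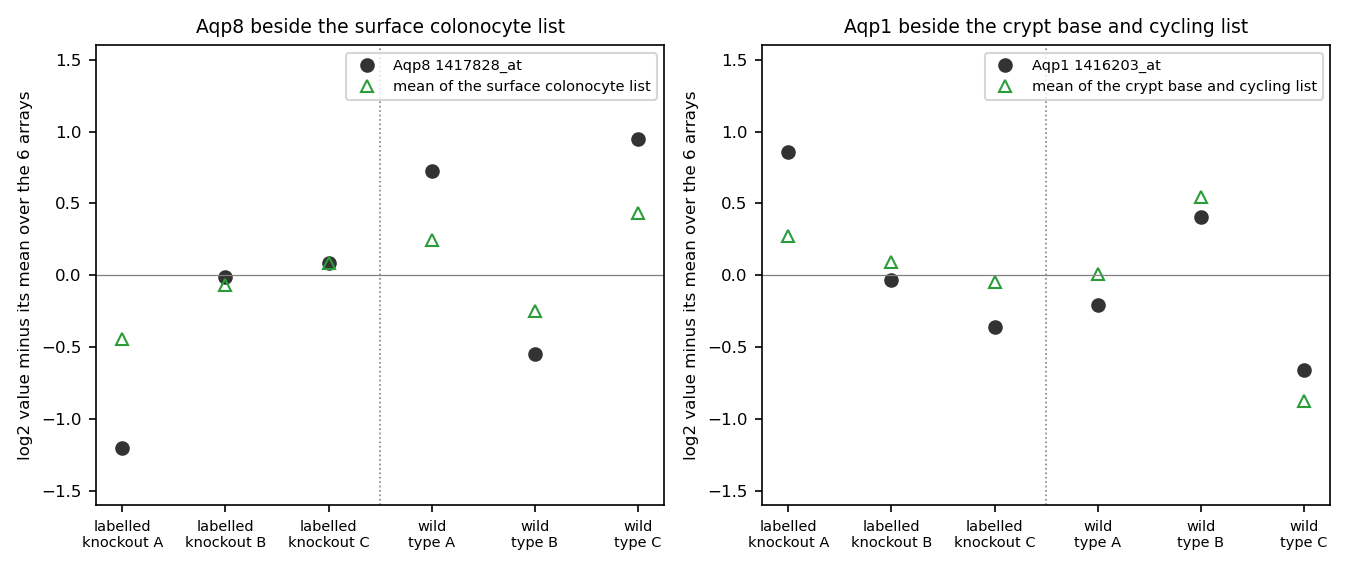
Log2 level minus its mean over the 6 arrays, for Aqp8 beside the mean of the surface colonocyte list (left) and for Aqp1 beside the mean of the crypt base and cycling list (right), with the arrays labelled knockout left of the dotted line and wild type right of it. Aqp8 and its list are lowest in knockout A and highest in wild type C; Aqp1 and the crypt list are high in knockout A and wild type B and lowest in wild type C.

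Aqp4, a water channel of basolateral membranes, was measured by 3 probe sets that ordered the arrays nearly alike. On each of them knockout C was highest, wild type B second, wild type A second lowest and wild type C lowest. On 1434449_at the deposited signals were 6211, 5743 and 7986 in the arrays labelled knockout, against 4226, 6489 and 2617 in wild type. On 1425382_a_at they were 1755, 1393 and 2217 in the arrays labelled knockout, against 844, 1900 and 251 in wild type. Wild type B thus lay among the arrays labelled knockout, and the low wild-type values came from A and C, most of all from C. On 1447745_at the signals were 199, 179 and 254 in the arrays labelled knockout and 114, 210 and 49.7 in wild type.

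The 3 Aqp4 probe sets differed in how far they spread. From the lowest to the highest array the log2 level spanned 0.95 on 1434449_at, 2.28 on 1425382_a_at and 1.54 on 1447745_at. The differences were 0.28 (SE 0.20, 95% interval -0.16 to 0.73), 0.73 (SE 0.46, 95% interval -0.33 to 1.79) and 0.47 (SE 0.35, 95% interval -0.32 to 1.25), each with a limma adjusted p of 0.915. On 1425382_a_at the log2 level was 10.55 ± 0.33 in the arrays labelled knockout and 9.82 ± 1.08 in wild type (SD, n = 3 each), so that the wild-type SD was larger than the difference. Leaving out wild type C, the array with the highest Gapdh ratio, brought the 3 differences to 0.10, 0.14 and 0.07. Against wild type B alone they were -0.017, -0.21 and -0.15, and after adjustment for the Gapdh ratio -0.13, -0.50 and -0.36.

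Because the brightest Aqp4 probe set spanned less than 1, no gene was named as like it by the rule. Added after the values were seen, the nearest to 1425382_a_at were the creatine synthesis gene Gatm (distance 0.154), Pde3a (0.211) and the serotonin receptor gene Htr4 (0.214), and the nearest to 1447745_at were Hykk (0.0967), Znrd1as (0.107) and Scamp1 (0.118).

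Aqp1, known from endothelium and red blood cells, had overlapping groups, with its highest level in knockout A. Its probe set, 1416203_at, read 479, 205 and 172 in the arrays labelled knockout and 131, 278 and 82.8 in wild type. Knockout A was highest, wild type B second and wild type C lowest, so the groups overlapped. The log2 level was 7.84 ± 0.63 in the arrays labelled knockout and 7.54 ± 0.53 in wild type (SD, n = 3 each), a difference of 0.31 (SE 0.37, 95% interval -0.53 to 1.14, limma adjusted p = 0.917). It turned to -0.046 without knockout A, to -0.25 against wild type B alone and to -0.19 after adjustment for the Gapdh ratio.

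The endothelial markers ordered the arrays otherwise than Aqp1, but most lay below the filter, so their order says little. Of 8 listed, all on the array, 2 were tested (Kdr at -0.36, SE 0.28, and Esam at -0.25, SE 0.28) and the other 6, Pecam1 and Cdh5 among them, lay below the filter. Their summed signal, on the linear scale after normalization as for the other lists, was 118 to 158 in the arrays labelled knockout and 161 to 184 in wild type, and its lowest value, 118, was that of knockout A, where Aqp1 was highest. Of 6 red blood cell markers 3 were on the array and none was above the filter, with a summed signal of 28.4 to 112 in the arrays labelled knockout and 27.8 to 37.5 in wild type.

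A list of crypt base and cycling genes was set beside Aqp1 by mean log2 level, not by summed signal. Its mean log2 level was 8.76, 8.57 and 8.43 in the arrays labelled knockout and 8.49, 9.02 and 7.61 in wild type. The order of the arrays differed from that of Aqp1 only in the top pair, wild type B and knockout A. The part of crypt genes or of endothelium in the Aqp1 values was not tested. Of the 11 tested genes 10 were higher and 1 lower, with a median of 0.24, and none passed. Cdca7 stood at 0.61 (SE 0.27), the stem cell factor gene Ascl2 at 0.51 (SE 0.37) and the stem cell receptor gene Lgr5 at -0.43 (SE 0.35). The genes nearest to Aqp1 were the acyl-CoA thioesterase gene Acot1 (distance 0.0873), the DNA repair gene Aplf (0.0904) and Uhrf1, which maintains DNA methylation at replication (0.107).

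**Figure D3:**
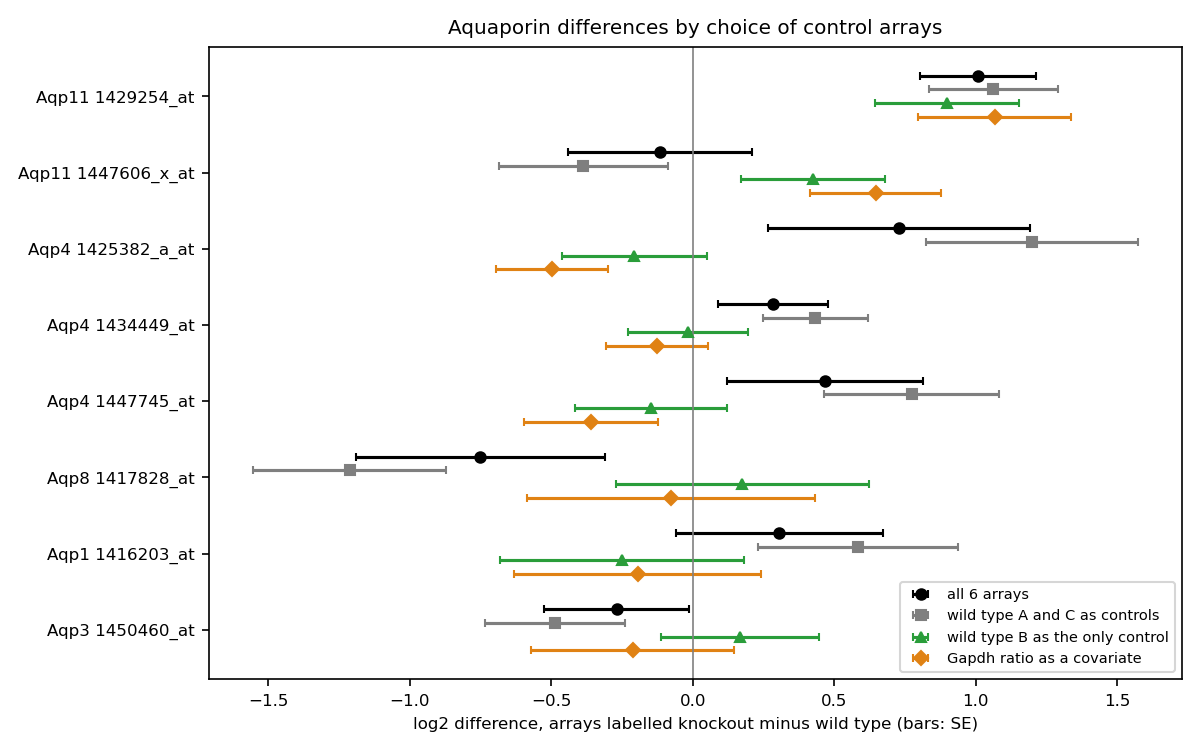
Log2 difference (arrays labelled knockout minus wild type, bars: SE) of the 8 tested aquaporin probe sets with all 6 arrays, with wild type A and C as controls, with wild type B alone as control and after adjustment for the Gapdh ratio. Aqp11 on 1429254_at lies between 0.90 and 1.07. The 3 Aqp4 probe sets and Aqp1 lie above 0 in the first pair of settings and below 0 in the second pair.

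The aquaglyceroporins Aqp3 and Aqp7 gave little signal. Only 1450460_at of the 4 Aqp3 probe sets was above the filter, near its edge, with signals of 21.6, 19.9 and 27.7 in the arrays labelled knockout and 37.7, 15.3 and 23.7 in wild type. Wild type A was highest and wild type B lowest, so the arrays labelled knockout lay inside the wild-type range. The log2 level was 5.19 ± 0.13 in the arrays labelled knockout and 5.46 ± 0.45 in wild type (SD, n = 3 each), a difference of -0.27 (SE 0.26, 95% interval -0.86 to 0.32, limma adjusted p = 0.915), which turned to 0.17 against wild type B alone and was -0.037 without wild type A. With the array weights that did not converge it passed (limma adjusted p = 0.0132, range over its alternatives 0.0132 to 0.9998). The other 3 Aqp3 probe sets read between 0.648 and 4.99 in the arrays labelled knockout and between 0.382 and 2.49 in wild type. On 1447727_at alone of these 3 the groups did not overlap, with 3.20 to 4.99 in the arrays labelled knockout and 1.88 to 2.05 in wild type. These signals lie far under the filter, where the share of such probe sets was not counted.

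Neither Aqp7 probe set was above the filter. On 1418849_x_at the signals were 0.569, 1.07 and 6.59 in the arrays labelled knockout and 7.89, 4.57 and 6.76 in wild type, and on 1418848_at they lay between 0.708 and 1.38 in the arrays labelled knockout and between 0.983 and 2.88 in wild type. The groups overlapped on both, and no detection calls were used here, so these values say only that the signal was low. Aqp3 and Aqp7 are adjacent protein-coding genes in the RefSeq annotation (GRCm38.p6).

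**Figure D4:**
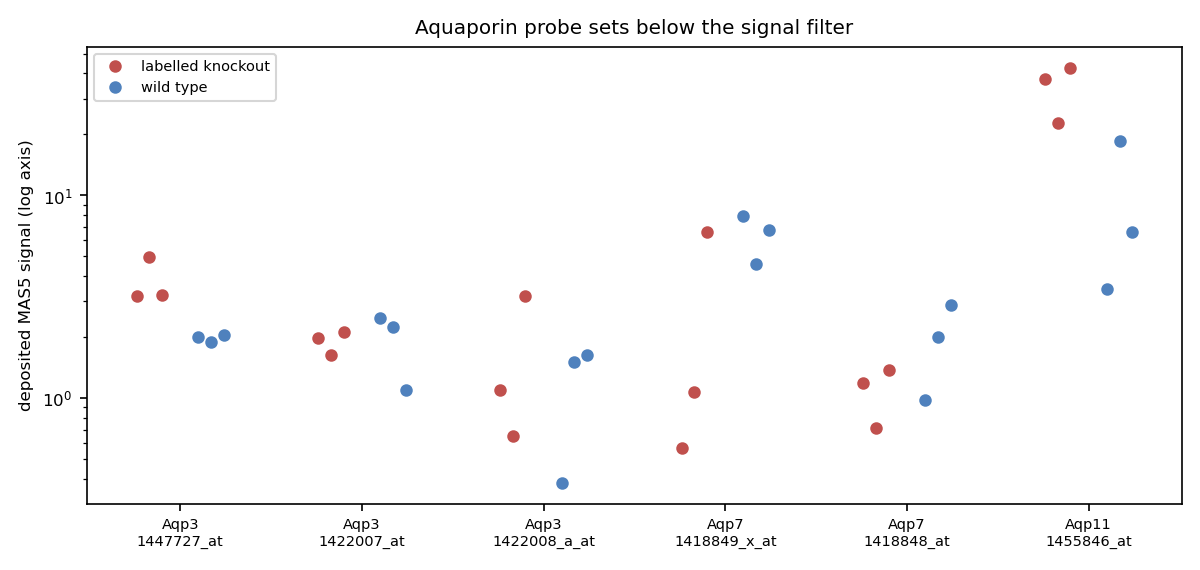
Deposited MAS5 signal (log axis) of the 6 aquaporin probe sets below the filter on low signals, 3 arrays labelled knockout (left of each pair) and 3 wild type (right). All values lie between 0.382 and 42.7, and Aqp11 on 1455846_at reaches 22.9 to 42.7 in the arrays labelled knockout, against 3.45 to 18.6 in wild type.

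The other aquaporin genes were near the bottom of the scale. Mip, Aqp2, Aqp5, Aqp6, Aqp9 and Aqp12 had 11 probe sets, of which 3 were tested and none passed. Aqp2, the vasopressin-regulated channel of the kidney collecting duct, stood at -0.05 (SE 0.25). Aqp6, an intracellular channel of the kidney, stood at -0.01 (SE 0.26) on its brightest probe set, while on 1459982_a_at it read 25.3, 27.8 and 31.9 in the arrays labelled knockout and 2.98 to 19.2 in wild type. That probe set averaged a log2 level of 5.37 in the arrays labelled knockout and 4.85 in wild type, so it passed the filter at 5.10 only through the arrays labelled knockout, and its difference supports nothing here.

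Genes of salt transport, which water follows across the colon, gave no call either. Of 19 tested genes of sodium and chloride absorption 7 were higher and 12 lower, with a median of -0.06. The sodium pump regulator gene Fxyd4 stood at -0.92 (SE 0.45), the scaffold gene Slc9a3r1 at -0.67 (SE 0.34) and the carbonic anhydrase gene Car4 at -0.68 (SE 0.35). The list mean was 10.36, 10.54 and 10.42 in the arrays labelled knockout and 10.65, 10.36 and 10.61 in wild type, highest in wild type A and C as for Aqp8. Of 14 genes of chloride and potassium secretion 9 were higher and 5 lower, with a median of 0.05, among them Guca2a, the chloride channel gene Cftr at 0.64 (SE 0.24) and the cotransporter gene Slc12a2 at 0.66 (SE 0.35). Of 11 genes of glycerol handling, the substrate of Aqp3 and Aqp7, 6 were higher and 5 lower, with a median of 0.01; Gpd1l stood at 0.32 (SE 0.18), the triglyceride lipase gene Pnpla2 at -0.33 (SE 0.20) and Mogat2 at 0.28 (SE 0.24). Over these 3 lists and the surface and crypt lists, the limma adjusted p of each named gene was 0.915.

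All 10 colon epithelial markers on the array, such as Epcam, Cdh1 and Cdx2, were above the filter, so the defining markers of the labelled tissue were present. Of them 4 were higher and 6 lower, with a median of -0.03, and Car4, Vil1 at -0.18 (SE 0.15) and Cdx2 at 0.07 (SE 0.14) had the smallest p. Genes of position along the colon had a median of -0.04 over 8 proximal genes, 3 higher and 5 lower (Fabp2 at -0.62, SE 0.16; Osr2 at 0.34, SE 0.36; Prdm16 at -0.25, SE 0.31) and 0.23 over 5 distal genes, 3 higher and 2 lower (Hoxa11 at -0.43, SE 0.27; Hoxb13 at 0.39, SE 0.31; Hoxa13 at 0.23, SE 0.26). Markers of the distal small intestine had a summed signal of 4110.02 to 4590.02 in the arrays labelled knockout and 4934 to 7370.5 in wild type. Most of this sum was Fabp2, which the proximal list also holds. Its log2 levels were 11.88, 11.98 and 11.88 in the arrays labelled knockout and 12.74, 12.19 and 12.66 in wild type. The sum therefore says little about the other markers. Of the 4 tested, Fabp2 was lower as above, Fabp6 stood at -0.74 (SE 0.74) and Slc10a2 at 1.35 (SE 0.50). Rbp2 read log2 levels of 5.83, 5.95 and 5.90 in the arrays labelled knockout and 4.64, 4.43 and 4.55 in wild type, and passed the filter only through the arrays labelled knockout. Of the smooth muscle markers 3 of 6 were tested, Acta2 at 0.56 (SE 0.30), Actg2 at 0.72 (SE 0.45) and Des at -0.06 (SE 0.39), and their summed signal was 265 to 578 in the arrays labelled knockout, highest in A, and 168 to 279 in wild type. Pancreatic acinar markers summed to 33.5 to 55.2 in the arrays labelled knockout and 49.9 to 591 in wild type, the highest in wild type B. Prss2, the 1 tested gene, read log2 levels of 4.97 to 5.05 in the arrays labelled knockout and 5.04, 7.67 and 5.23 in wild type. It passed the filter only through wild type B. Enteric glia (Sox10 at -0.14, SE 0.21), adipocyte (Cidec at -0.19, SE 0.29) and skeletal muscle markers (Acta1 at -0.45, SE 0.27, and Ckm at -0.10, SE 0.39) summed to at most 97.5, 72.9 and 226 in any array. None of these marker genes passed, and their part in the aquaporin values was not tested.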

How the data were processed

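Each deposited value is an intensity on a linear scale, and per the submitters' processing notes the authors used MAS5 to make it. Neither its version nor its scaling target was known. The 2% trimmed means differed between arrays, so no common scale was assumed. Signals were taken as log2(signal + 16) and quantile normalized over all 45101 probe sets, which removes any overall difference between groups. Probe sets under the 40th percentile of mean log2 level (a signal of about 18.4) and 64 control probe sets were left out, which left 27002. The test was limma's moderated fit (limma 3.58.1 in R 4.3.3, lmFit, then eBayes with trend; residual degrees of freedom 4, prior 4.57), with p-values adjusted by Benjamini-Hochberg over all 27002.

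Gene symbols came from the platform annotation. Lists used each gene's brightest probe set. In each list the 3 tested genes with the smallest unadjusted p were named. For members spanning 1 or more in log2 terms the 3 genes most alike were named. Members, lists, scaling and control-array alternatives were chosen with earlier results of these data known. The fit was tested on simulated data. Promoter sequences are RefSeq's (GRCm38.p6), and motifs were searched on both strands.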

Additional observations from a re-analysis of the deposited data

How the results depend on the processing

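Over all probe sets limma called 0 of 27002, and 1 on the signals as deposited, 1 with centring on array medians, 1 with the letter as a replicate block, 1 with the Gapdh ratio as a covariate, 2 against wild type B alone, 0 to 2 when 1 array was left out (2 without wild type B, 1 without wild type C), 5354 with array weights and 74 with array weights estimated gene by gene. Of the aquaporin probe sets 3 were called with array weights (Aqp3 1450460_at, Aqp8 and Aqp11 1429254_at) and 1 with weights estimated gene by gene (Aqp11 1429254_at); this last setting was chosen after seeing the data, because the default estimate did not converge and gave wild type A a weight of 36.0. The brightest Mapk14 probe set passed only with the default weights, at a difference of 0.51. The block changed no aquaporin call. Deviations from the group means correlated at -0.07, -0.16 and 0.43 for A, B and C, and at -0.46 to 0.54 between different letters. With 3 arrays per group these values cannot tell whether same letters pair the samples.

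Against wild type B alone, which is assumed to vary like the arrays labelled knockout, Aqp1 (-0.25), Aqp3 1450460_at (0.17), Aqp4 1434449_at (-0.017), 1425382_a_at (-0.21) and 1447745_at (-0.15), Aqp8 (0.17) and Aqp11 1447606_x_at (0.43) turned. With the Gapdh ratio as a covariate Aqp1 (-0.19), the Aqp4 probe sets (-0.13, -0.50 and -0.36) and Aqp11 1447606_x_at (0.65) turned. Aqp11 1447606_x_at also turned on the signals as deposited (0.36), with median centring (0.12), with default weights (0.15) and with weights estimated gene by gene (0.12), and ranged from -0.39 to 0.27 (without wild type C) when 1 array was left out. Aqp1 ranged from -0.046 to 0.58 then, the lowest without knockout A. The cause was not tested. Pseudocounts of 1 and 64, no filter, a filter at the 60th percentile, the brightest probe set of each gene, no variance trend and a robust prior turned no aquaporin difference. Probe sets near the bottom of the scale, those of Aqp3 and Aqp7 above all, limit what could be seen.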
